A study of Drosophila melanogaster with 18 samples.

Results

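The Polycomb group genes examined here are Pc, ph-p, ph-d, Psc, Su(z)2, Sce, Scm, E(z), esc and pho, 10 of the 14195 gene windows that could be formed. Each member was chosen by name, and its window is the RefSeq gene span of the fly genome (dm6) with 1 kb on each side. Together the 10 windows held 594 of the 767321 GATC ends in the count table, an end being one side of a GATC site on its own strand. The measurement was Targeted DamID, in which a bacterial DNA adenine methyltransferase (Dam), free or fused to a chromatin protein, marks the GATC sites it comes close to. Methylated fragments were released by DpnI, amplified and sequenced, so a value reports occupancy or accessibility and not RNA.

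Eye-antennal discs of Drosophila melanogaster were profiled in 18 libraries, 3 for each of 6 groups. The fusions were UAS-Dam-Sd (Scalloped, the TEAD-family DNA-binding partner of Yorkie), UAS-Yki-Dam (Yorkie, the coactivator restrained by Hippo signalling) and UAS-Dam-Jra (the Jun subunit of AP-1), against UAS-Dam alone in Sets 1, 2 and 3. All groups carried Eyeless-Gal4, which drives the transgene in the eye-antennal primordium, and the temperature-sensitive repressor Gal80ts. Eggs were laid at 25 °C, animals were held at 18 °C for 4 days, and expression was released at 29 °C for the 24 hours before dissection, per the labels. Whether replicates came from different crosses, animals or pools is not stated in the labels, and the p-values may measure technical spread only. Signal per gene cannot tell more cells with a bound fusion from more binding in each cell.

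Polycomb group proteins keep genes silent through cell divisions. Polycomb repressive complex 2 (PRC2), with the methyltransferase E(z) and its partner Esc, places methyl groups on lysine 27 of histone H3, and Polycomb repressive complex 1 (PRC1), with Pc, Ph, Psc or Su(z)2 and the ubiquitin ligase Sce, compacts the marked chromatin and ubiquitylates histone H2A. Pho binds DNA and brings the complexes to Polycomb response elements, and Scm links PRC1 with other Polycomb proteins. In eye discs, loss of the ph genes, or of Psc together with Su(z)2, causes overgrowth, so these genes act there as growth suppressors.

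Each fusion was compared with Dam of the set its title names, Dam-Sd with Set 1 and Yki-Dam with Set 2. Titles place Dam-Jra in Set 1 and leave Set 3 without a fusion, so its reference was the average of all 3 Dam sets. Set 1 therefore entered the controls of both Dam-Sd and Dam-Jra, and Set 2 those of both Yki-Dam and Dam-Jra. Levels are CPM (reads scaled to a common library size) after trimmed mean of M values (TMM) scaling. Called windows passed an adjusted p of 0.05 in edgeR's quasi-likelihood test, adjusted by Benjamini-Hochberg over the 14093 windows tested. All 10 members passed the filter on low counts.

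Libraries held 21416846 to 40967981 counted reads, of which 18706 to 44892 fell in the 10 windows, 0.0741% to 0.115% of the total. The most-read 1% of ends held 47.4 ± 5.13% of reads in Dam-Sd libraries, 44.6 ± 3.34% in those of Yki-Dam and 42.5 ± 0.24% in those of Dam-Jra (SD, n = 3 each). In the Dam libraries of Sets 1, 2 and 3 they took 22.1 ± 4.53%, 28.4 ± 4.15% and 33.6 ± 1.02%. TMM factors were 0.51, 0.62 and 0.93 in Dam-Sd replicates 1 to 3, and replicate 3 also lay nearest to Dam at ph-p, ph-d, Psc, Su(z)2, Pc, Scm and pho. When only library size was used for scaling, the median window moved by −1.20 (Dam-Sd), −0.85 (Yki-Dam) and −0.97 (Dam-Jra) on the log2 scale, and 7.97%, 7.55% and 12.1% of the called windows were higher, against 45.1%, 44.6% and 44.5% after TMM. Folds below are therefore relative to the bulk of windows, and calls that this scaling turned or ended are given where the members are described. Of 12 listed eye-antennal disc genes, among them ey, toy, so and eya, all 12 windows were called higher in each of the 3 fusions. Of 4 fat body marker windows Dam-Sd had 3 called lower, Yki-Dam 3 and Dam-Jra 4. Of 4 haemocyte windows 1, 1 and 0 were higher and 2, 1 and 3 lower, of 5 neuronal windows 2, 1 and 2 were higher and 1, 2 and 2 lower, and of 5 muscle windows 0, 2 and 2 were higher and 1, 0 and 2 lower, in the same order of fusions. What part these cells had in the members' values was not tested.

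In Dam-Sd, 5 of the 10 Polycomb windows were called higher than Dam (ph-p, ph-d, Psc, Su(z)2 and Sce), where 25.0% of all windows were, and 4 were called lower (Pc, E(z), Scm and pho), where 30.5% of all windows were. Psc and Sce among the higher ones turned negative under library-size scaling and were called lower there (−0.44 with adjusted p = 0.0148, and −0.72 with adjusted p = 0.0103, edgeR). Without overlap between the groups, 3 windows lay above Dam and 4 below, as 24.8% and 32.8% of all windows did. In Yki-Dam, 6 were called higher (ph-p, ph-d, Psc, Su(z)2, Sce and esc), where 18.2% of all windows were, with Sce at −0.07 under that scaling. In Yki-Dam 0 were called lower by edgeR's quasi-likelihood test, where 22.6% of all windows were. At an unadjusted p below 0.05 the lower count was 1 (pho), with the replicate number as a block it was also 1 (pho), and DESeq2 called 0. Under library-size scaling 4 were called lower (Pc, E(z), Scm and pho), where 9416 of the 14093 windows were. All 6 higher windows lay above Dam without overlap, as 20.3% of all windows did, and 32.3% of all windows lay below in that way. In Dam-Jra, 5 were called higher (ph-p, ph-d, Psc, Su(z)2 and esc), where 30.8% of all windows were, with Su(z)2 at −0.14 under library size alone, and 1 was called lower (pho), where 38.4% of all windows were. All 5 lay above every Dam library and pho below every one, as 25.6% and 29.9% of all windows did. The median log2 fold change of the 10 members was 0.46 for Dam-Sd, 0.86 for Yki-Dam and 0.47 for Dam-Jra, beside −0.22, −0.26 and −0.16 over all windows.

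The PRC1 genes ph-p, ph-d, Psc and Su(z)2 were called higher in all 3 fusions after TMM scaling. This held for 4 of 10 members, and for 13.7% of all windows tested. Under library-size scaling ph-p alone among them was still called higher in all 3. There Psc turned to −0.44 in Dam-Sd and Su(z)2 to −0.14 in Dam-Jra (adjusted p = 0.342, edgeR). The ph-d call ended in Dam-Sd (0.34, adjusted p = 0.0524) and Dam-Jra (0.015, adjusted p = 0.920), and the Su(z)2 call in Dam-Sd (0.06, adjusted p = 0.740) and Yki-Dam (0.23, adjusted p = 0.200, edgeR). edgeR's quasi-likelihood test called 0 members lower in all 3 after TMM scaling, where 11.3% of all windows were. Under library-size scaling it called Pc, E(z), Scm and pho lower in all 3. Their log2 values in Dam-Sd, Yki-Dam and Dam-Jra were −2.52, −1.14 and −0.91 (Pc) and −1.83, −1.06 and −1.21 (E(z)). Those of Scm were −2.31, −1.37 and −0.86, and those of pho −2.06, −1.59 and −2.34. There 10384, 9416 and 9822 of the 14093 windows were called lower. After TMM scaling pho was called lower in Dam-Sd (−0.95) and Dam-Jra (−1.37), and gave −0.74 in Yki-Dam, where it did not pass (adjusted p = 0.088, edgeR) and the libraries overlapped. With the replicate number as a block, pho was called lower in all 3 (adjusted p = 2.8e-05 for Dam-Sd, 0.000641 for Yki-Dam and 7.5e-05 for Dam-Jra, edgeR). However, the numbers did not pair the Dam-Jra libraries with those of Dam, and paired those of Yki-Dam less clearly than those of Dam-Sd.

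**Figure D1:**
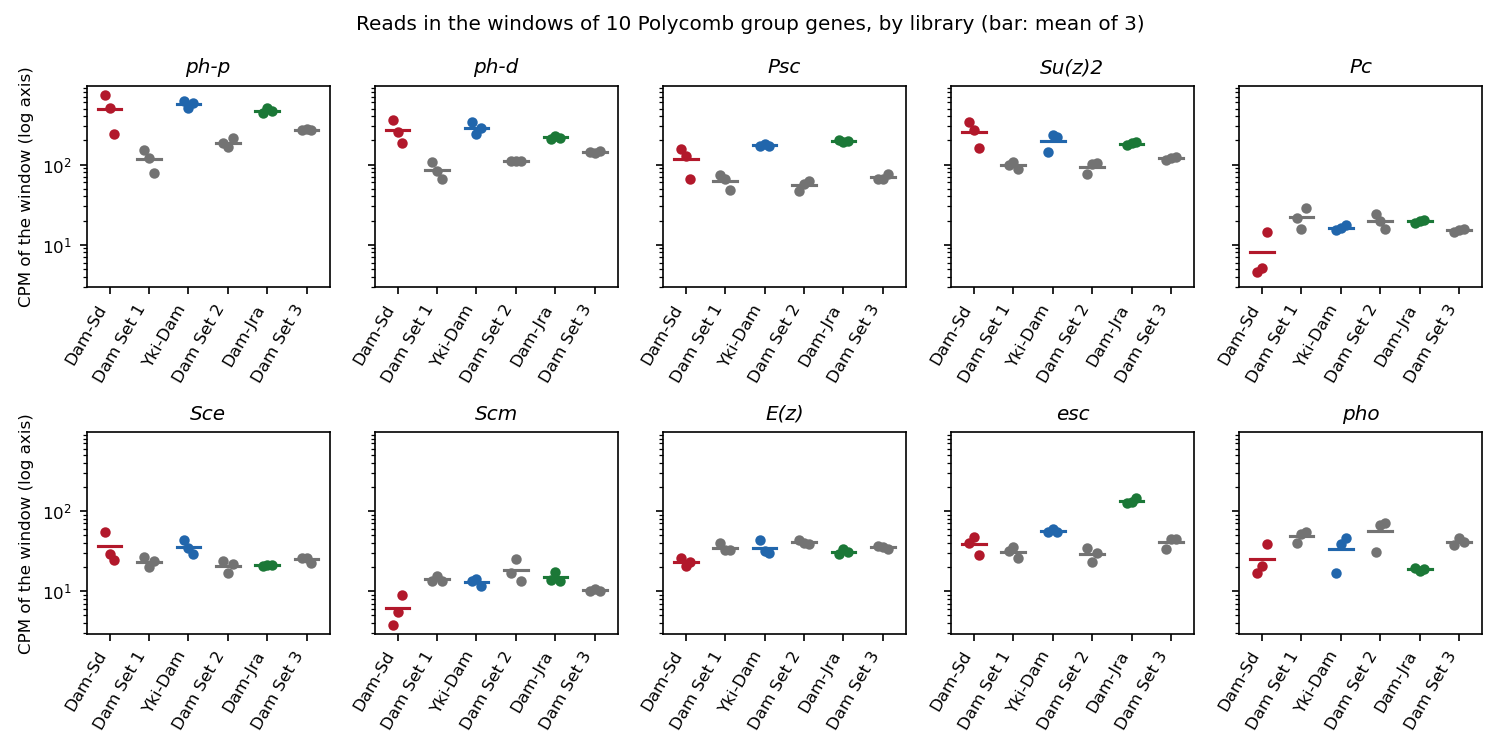
Reads in the 10 Polycomb group windows in every library, as TMM-scaled CPM on a log axis shared by all panels, with each fusion left of the Dam set drawn beside it (Dam of Set 3 stands right of Dam-Jra). Points are libraries and bars are means of 3. In the ph-p panel the 3 fusions lie between 242 and 735 CPM, apart from most Dam libraries, and in the esc panel Dam-Jra stands apart at 127 to 144 CPM.

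The ph genes encode the 2 Polyhomeotic proteins, core subunits of PRC1 that polymerise through a SAM domain. They lie next to each other on the X chromosome, ph-d at 2115727 to 2123286 and ph-p at 2126210 to 2138371, with 2.92 kb between them, and both are read towards lower coordinates. ph-p had 735, 509 and 242 CPM in Dam-Sd replicates 1 to 3, against 152, 122 and 78.4 CPM in Dam of Set 1. All 3 Dam-Sd libraries lay above all 3 Dam libraries, with replicate 3 lowest in both groups. The log2 fold change was 2.08 ± 0.30 (SE; 4.21-fold, n = 3 each, adjusted p = 1.27e-05 in edgeR's quasi-likelihood test). This was higher than 96.7% of all windows in that comparison. Against the mean of the 3 Dam sets the log2 fold change was 1.45 ± 0.22 (adjusted p = 1.58e-05, edgeR). Dam-Sd replicate 3 lay below every Dam library of Set 3 (270 to 277 CPM).

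In Yki-Dam, ph-p had 619, 505 and 584 CPM, against 183, 166 and 215 CPM in Dam of Set 2. The groups did not overlap. The log2 fold change was 1.60 ± 0.29 (3.03-fold, adjusted p = 0.00039, edgeR). In Dam-Jra ph-p had 439.6, 506 and 466 CPM, against a lowest value of 78.4, a median of 183 and a highest of 277 CPM in the 9 Dam libraries. Dam-Jra lay above every Dam library, and Set 3 was the highest Dam set. The log2 fold change of ph-p was 1.37 ± 0.22 (2.59-fold, adjusted p = 2.21e-05, edgeR) against the mean of the sets and 0.79 ± 0.29 (adjusted p = 0.0285) against Set 3 alone.

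ph-d followed the same order at lower levels. It had 360.1, 255 and 188 CPM in Dam-Sd, against 109, 83.4 and 65.2 CPM in Dam of Set 1, and the groups did not overlap (log2 1.64 ± 0.22, 3.12-fold, adjusted p = 7.96e-06, edgeR). Yki-Dam gave 343, 237 and 282 CPM, against 110.2, 109.7 and 111 CPM in Dam of Set 2 (log2 1.38 ± 0.22, 2.61-fold, adjusted p = 0.000132, edgeR). The Dam libraries of Set 2 were nearly level there, and the Yki-Dam libraries all lay above them. Dam-Jra gave 209.7, 229 and 216 CPM, against 65.2, 110.2 and 146 CPM as lowest, median and highest of the 9 Dam libraries. The log2 fold change of ph-d in Dam-Jra was 0.98 ± 0.17 (1.97-fold, adjusted p = 5.47e-05, edgeR).

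Inside both ph genes the signal was not spread evenly. Of the single ends that passed the filter, 51 lay in the ph-p window and 42 in the ph-d window, and the authors' deposited peak lists placed peaks near both gene starts. The ph genes are related copies, and how reads that match both were assigned is not given in the sources used here, so the split of signal between them is uncertain. In Dam-Sd, 22 ph-p ends were called higher and 6 lower than Dam, and in ph-d 9 were called higher and 13 lower (adjusted over 394539 ends, of which 11.0% were called higher and 11.3% lower). The ph-d ends called lower all lay inside the gene, downstream of the ends called higher. For example, the end at X:2117969 on the plus strand, 5.32 kb downstream of the ph-d start, had no read in the Dam-Sd libraries, against 0.558 ± 0.268 CPM in Dam of Set 1 (SD, n = 3, adjusted p = 0.00396, edgeR). In Yki-Dam 7 ph-d ends were called higher and 4 lower, where 7.0% and 3.06% of all ends were. Of these, the end at X:2117115 on the plus strand, 6.17 kb downstream of the ph-d start, averaged 0.622 ± 0.318 CPM in Yki-Dam and 4.65 ± 1.43 CPM in Dam of Set 2 (SD, n = 3 each), and log2 was −2.91 ± 0.60 (adjusted p = 0.00459, edgeR). On the other side of the start, the end at X:2123970 on the minus strand, 0.684 kb upstream of it, averaged 61.9 ± 13.1 CPM in Yki-Dam and 6.88 ± 0.65 CPM in Dam of Set 2, with log2 3.17 ± 0.37 (adjusted p = 7.65e-05, edgeR).

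The authors' deposited peaks cover the same stretches. For ph-d they listed X:2122037-2124752 in both Dam-Sd (the authors' log2 fold 2.08) and Yki-Dam (2.29), and X:2122037-2123978 in Dam-Jra (1.31). In the first of these intervals the counts gave 322, 225 and 165 CPM in Dam-Sd, against 50.03, 33.2 and 20.1 CPM in Dam of Set 1. Yki-Dam gave 315, 196 and 241 CPM there, against 55.8, 51.7 and 57.7 CPM in Dam of Set 2. Each fusion lay above its Dam libraries in every replicate. Since the authors may have chosen the intervals on these same libraries, the values describe them and test nothing.

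For ph-p the authors' deposited lists gave 2 peaks in Dam-Sd, X:2134550-2136550 (log2 2.10) and X:2136985-2139121 (1.48), which spans the gene start. In Yki-Dam 1 long peak, X:2134094-2139121, covered both (log2 2.31), and another, X:2125617-2126127 (1.31), lay beyond the 3′ end of ph-p. In Dam-Jra the list gave X:2134094-2136928 (log2 1.41), which ends 1.44 kb short of the ph-p start. Ends of ph-p inside any of these peaks summed to 474 ± 250 CPM in Dam-Sd and 84.7 ± 33.0 CPM in Dam of Set 1 (SD, n = 3 each), and the 50 ends outside them to 20.7 ± 4.39 CPM in Dam-Sd and 32.8 ± 4.77 CPM in Dam of Set 1. The ratio of means was 5.60 inside the peaks and 0.63 outside them. In ph-d the 9 ends inside peaks had a ratio of 6.85 in Dam-Sd, and the 55 outside had 0.64. In Yki-Dam the ratios were 3.48 inside and 0.79 outside for ph-p, and 4.55 and 0.68 for ph-d. Dam-Jra, set against the 9 Dam libraries, had 2.70 and 1.01 for ph-p, and 2.66 and 1.30 for ph-d. The authors may have chosen these peaks on the same libraries. Ratios that are high inside and lower outside can follow from that choice, so they describe the peaks and test nothing.

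**Figure D2:**
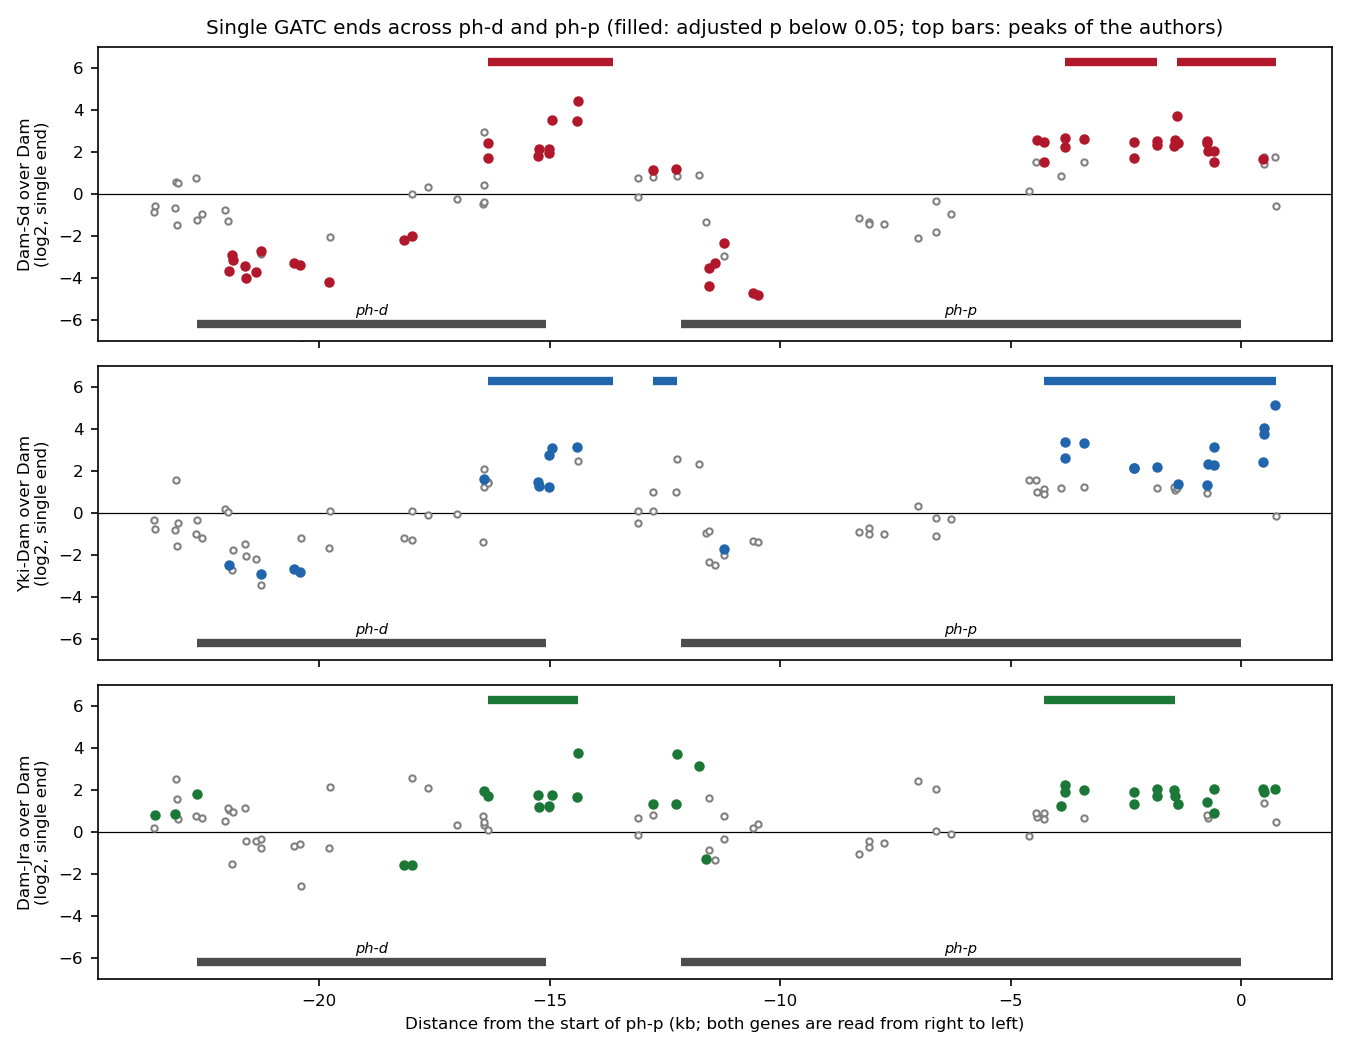
Log2 fold change of single GATC ends (y axis) across ph-d and ph-p by distance from the ph-p start in kb (x axis), with panels for Dam-Sd, Yki-Dam and Dam-Jra from top to bottom. Filled points passed an adjusted p of 0.05, grey bars are gene spans and coloured bars are the authors' peaks. In all 3 panels most ends called higher lie at or downstream of both gene starts, with a few at the 3′ ends, and ends called lower include some inside ph-d (13 for Dam-Sd, 4 for Yki-Dam, 2 for Dam-Jra).

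The signal in the 1 kb on each side of the gene start alone was also called for both ph genes in Dam-Sd (ph-p 1.52 ± 0.27, adjusted p = 0.00021, and ph-d 2.01 ± 0.22, adjusted p = 1.9e-06, edgeR) and in Yki-Dam (1.23 ± 0.27, adjusted p = 0.00201, and 1.60 ± 0.21, adjusted p = 3.35e-05). In Dam-Jra that stretch was called for ph-d (0.54 ± 0.17, adjusted p = 0.0101) and gave 0.40 ± 0.21 for ph-p (adjusted p = 0.123, edgeR).

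Psc and Su(z)2 encode related PRC1 subunits that compact chromatin and can stand in for each other. They are neighbours on 2R, Psc at 12965997 to 12980994 and Su(z)2 at 12996501 to 13007911, with 15.5 kb between them. Neither window shared an end with another gene's window. Psc had 155, 128 and 66.4 CPM in Dam-Sd, against 73.8, 66.3 and 48.5 CPM in Dam of Set 1. The groups overlapped through Dam-Sd replicate 3, and the log2 fold change was 0.89 ± 0.23 (1.85-fold, adjusted p = 0.00333, edgeR), or −0.44 under library-size scaling. Relative to the median window of each scaling, Psc stood at 1.10 and 0.97.

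In Yki-Dam, Psc had 169, 180.4 and 170.4 CPM, against 47.3, 57.3 and 61.7 CPM in Dam of Set 2 (log2 1.64 ± 0.24, 3.13-fold, adjusted p = 5.2e-05, edgeR). In Dam-Jra it had 204, 190.5 and 198 CPM, against 47.3, 65.8 and 77.4 CPM as lowest, median and highest of the 9 Dam libraries (log2 1.66 ± 0.18, 3.16-fold, adjusted p = 2.02e-07, edgeR). Both fusions lay far above every Dam library of their comparison.

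Single ends of Psc called higher numbered 25 of 50 in Dam-Jra, where 18.8% of all ends were called higher and 19.9% lower. In Yki-Dam 14 were called higher, where 7.0% of all ends were and 3.06% were called lower. In Dam-Sd 6 were (12% of the 50 tested), near the 11.0% of all ends. The ends called higher lay inside the gene, away from its start, and most were in its 3′ part in all 3 fusions. The end at 2R:12970531 on the plus strand, 10.5 kb downstream of the Psc start, averaged 4.51 ± 1.24 CPM in Yki-Dam and 0.00897 ± 0.0155 CPM in Dam of Set 2 (SD, n = 3 each, adjusted p = 4.12e-05, edgeR). The 1 kb on each side of the Psc start was called in none of the 3 fusions by edgeR's quasi-likelihood test (log2 0.98 ± 0.85 for Dam-Sd, 1.75 ± 0.83 for Yki-Dam and 0.11 ± 0.68 for Dam-Jra, with adjusted p = 0.342, 0.107 and 0.903).

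The authors' deposited lists placed a Psc peak at 2R:12976331-12977354 in Dam-Sd (log2 1.04) and Yki-Dam (1.99), and a longer one in Dam-Jra at 2R:12971292-12977354 (2.11). In the long interval the counts gave 163, 143 and 152 CPM in Dam-Jra, against 23.8 to 58.7 CPM in the 9 Dam libraries. Yki-Dam also had a short peak at 2R:12981584-12981709, upstream of the Psc start, with the authors' log2 of 3.55. There the Yki-Dam libraries gave 0.0828, 28.1 and 3.68 CPM, against 0, 3.22 and 0.0626 CPM in Dam of Set 2. Replicate 2 supplied most of that signal in both groups.

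Su(z)2 had 335, 271 and 163 CPM in Dam-Sd, against 98.1, 109 and 87.1 CPM in Dam of Set 1. The groups did not overlap (log2 1.39 ± 0.23, 2.61-fold, adjusted p = 6.81e-05, edgeR). Yki-Dam gave 143, 232 and 222 CPM, against 75.3, 101 and 106 CPM in Dam of Set 2 (log2 1.08 ± 0.23, 2.12-fold, adjusted p = 0.00145, edgeR). Replicate 1 was lowest in both of these groups. Dam-Jra gave 174, 186 and 189 CPM, against 75.3, 106 and 125 CPM as lowest, median and highest of the 9 Dam libraries (log2 0.83 ± 0.18, 1.77-fold, adjusted p = 0.000501, edgeR, or −0.14 under library-size scaling). Of its 46 tested ends, 9 were called higher and 8 lower in Dam-Sd, 11 were called higher in Yki-Dam, and 13 were called higher and 6 lower in Dam-Jra. Over all ends, 11.0% were higher and 11.3% lower in Dam-Sd, 7.0% higher in Yki-Dam, and 18.8% higher and 19.9% lower in Dam-Jra, so that the 6 lower of 46 in Dam-Jra were a smaller share than among all ends. At its window's edge the authors' deposited list for Dam-Jra held 1 peak, 2R:12994051-12995681 (log2 1.52). Its Dam-Sd and Yki-Dam lists held none in this window, although the window was called.

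**Figure D3:**
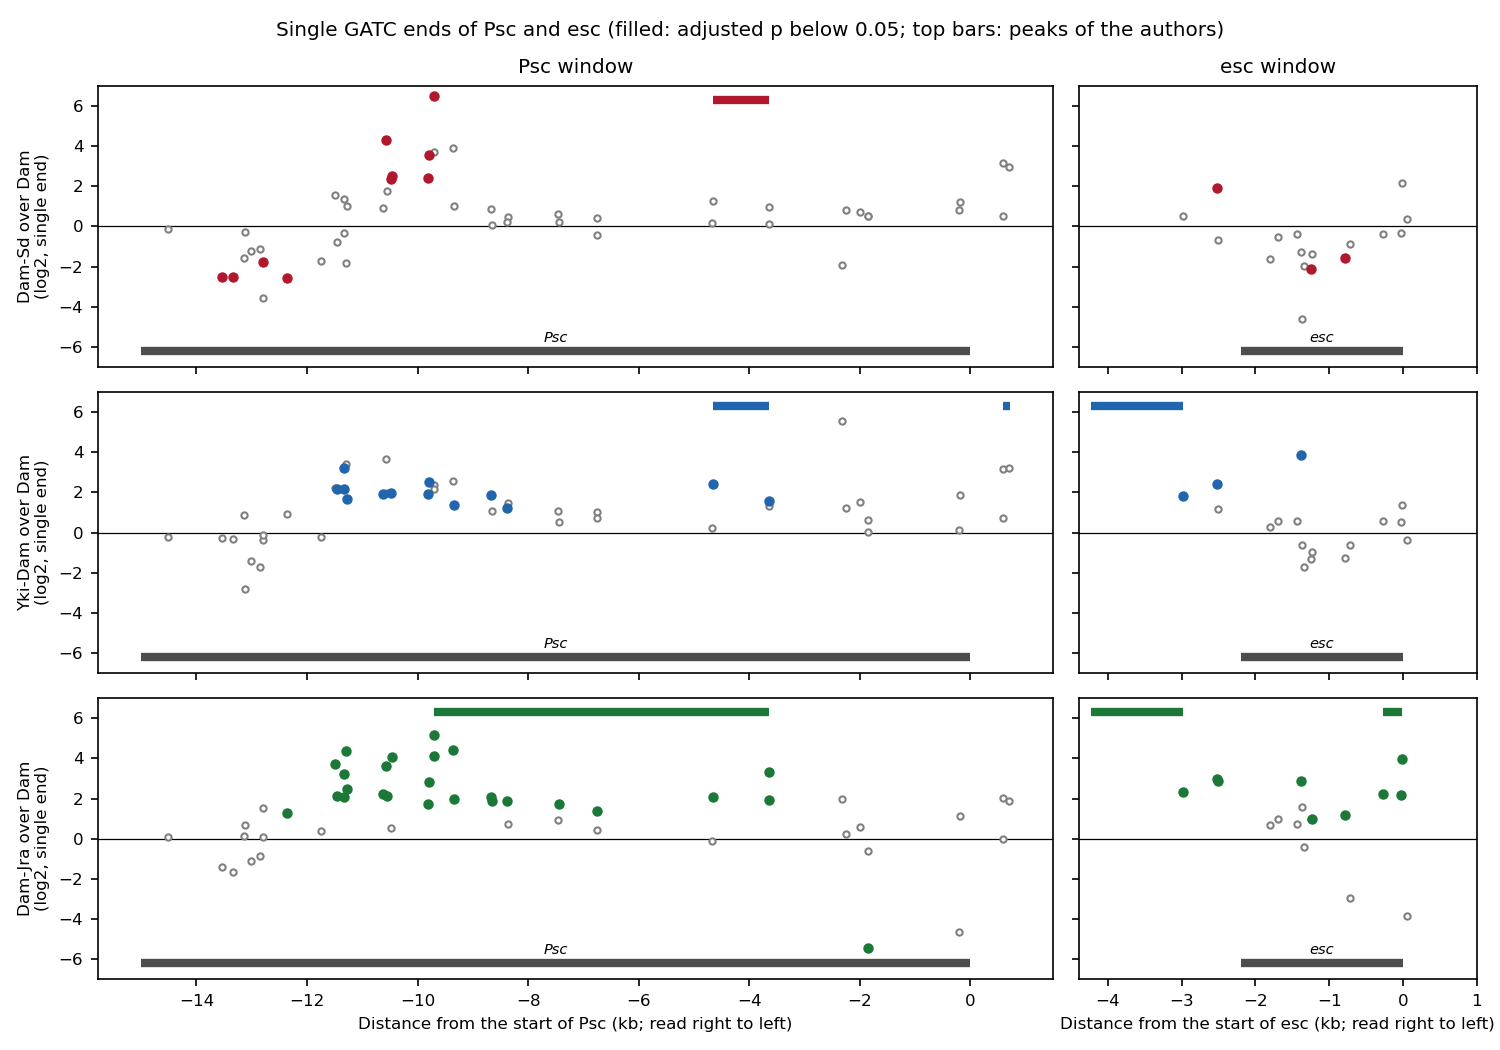
Log2 fold change of single GATC ends (y axis) in the windows of Psc (left) and esc (right) by distance from the gene start in kb (x axis), with Dam-Sd, Yki-Dam and Dam-Jra from top to bottom. Filled points passed an adjusted p of 0.05, grey bars are gene spans and coloured bars are the authors' peaks. In Psc the called higher ends lie well downstream of the start, and in esc the Dam-Jra ends called higher (9 of 17) include ends at the start itself.

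Pc encodes the chromodomain protein that reads methylated histone H3, and lies on 3L at 21306138 to 21318020. Its window was the least covered of the 10. Of its 78 ends, 44.9% had no read in any library, beside 17.3% of all ends, and only 14 could be tested singly. Pc had 4.50, 5.18 and 14.4 CPM in Dam-Sd, against 21.7, 15.6 and 28.5 CPM in Dam of Set 1. Dam-Sd replicates 1 and 2 were far below Dam, and replicate 3 lay just under the lowest Dam library. Pc fell by 1.45 ± 0.33 on the log2 scale (adjusted p = 0.00105, edgeR), and by 2.12 without Dam-Sd replicate 3. The 5 of 14 tested ends that were called in Dam-Sd were lower, where 11.3% of all ends were called lower.

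In Yki-Dam, Pc had 15.4, 16.1 and 17.5 CPM, against 23.9, 20.05 and 15.9 CPM in Dam of Set 2, and log2 was −0.29 ± 0.32 (adjusted p = 0.472, edgeR). Under library-size scaling Pc was called lower there (−1.14, adjusted p = 0.0273, edgeR). In Dam-Jra it had 18.9, 19.8 and 20.5 CPM, against 14.5, 15.9 and 28.5 CPM as lowest, median and highest of the 9 Dam libraries. Its log2 there was 0.07 ± 0.26 (adjusted p = 0.822, edgeR). Over the gene span without flanks, Pc was called higher in Dam-Jra (0.57 ± 0.22, adjusted p = 0.0289), and over the whole window it was called lower under library-size scaling (−0.91, adjusted p = 0.0336, edgeR). The window shares 16 ends with neighbouring windows.

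Sce, the RING ubiquitin ligase of PRC1, is a short gene on 3R at 27680431 to 27682029, so 12 of its 34 ends lay in the gene and the rest in the flanks. It had 55.4, 29.0 and 24.2 CPM in Dam-Sd, against 26.8, 19.9 and 23.7 CPM in Dam of Set 1. The groups overlapped, and replicate 1 was highest in both. The log2 fold change was 0.62 ± 0.25 (adjusted p = 0.0388, edgeR), 0.19 without Dam-Sd replicate 1 (adjusted p = 0.472), 0.52 without Dam of Set 1 replicate 2 (0.133), 0.63 without its replicate 3 (0.0805), 0.64 in a fit of only the 6 libraries compared (0.106) and −0.72 under library-size scaling (0.0103). In Yki-Dam it had 43.1, 34.9 and 29.5 CPM, against 23.7, 16.9 and 22.1 CPM in Dam of Set 2. Those groups did not overlap (log2 0.78 ± 0.25, adjusted p = 0.0186, edgeR). The value was −0.07 under library-size scaling, 0.64 without Dam of Set 2 replicate 2 (adjusted p = 0.0853) and 0.59 without Yki-Dam replicate 1 (adjusted p = 0.0969).

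Over the gene span alone Sce was not called. There log2 was −1.04 ± 0.47 in Dam-Sd (adjusted p = 0.075, edgeR) and 0.43 ± 0.47 in Yki-Dam (adjusted p = 0.483). The end at 3R:27682855 on the plus strand, beyond the gene, averaged 7.09 ± 2.04 CPM in Dam-Sd and 1.97 ± 0.54 CPM in Dam of Set 1, with log2 1.85 ± 0.37 (adjusted p = 0.00187, edgeR). The end at 3R:27681843 on the plus strand, within the gene, averaged 0.400 ± 0.070 CPM in Dam-Sd and 2.68 ± 0.69 CPM in Dam of Set 1, with log2 −2.73 ± 0.41 (adjusted p = 0.000196, edgeR). The next gene, CG12883, is 95 bp away. In Dam-Jra, Sce had 20.9, 21.4 and 21.5 CPM, within the range of the 9 Dam libraries (16.9 to 26.8 CPM), and log2 was −0.12 ± 0.20 (adjusted p = 0.618, edgeR). Under library-size scaling Sce was called lower there (−1.09, adjusted p = 0.000112, edgeR).

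Scm, the SAM-domain protein that joins PRC1 to other Polycomb factors, lies on 3R at 9633359 to 9637611. It had 3.81, 5.49 and 9.02 CPM in Dam-Sd, against 13.3, 15.6 and 13.3 CPM in Dam of Set 1. All Dam-Sd libraries lay below all Dam libraries, and Scm fell by 1.20 ± 0.28 on the log2 scale (adjusted p = 0.00136, edgeR). In Yki-Dam it had 13.5, 14.0 and 11.5 CPM, against 16.9, 25.5 and 13.6 CPM in Dam of Set 2 (log2 −0.52 ± 0.27, adjusted p = 0.132, edgeR, or −1.37 under library-size scaling, adjusted p = 0.00446). In Dam-Jra it had 13.9, 17.6 and 13.5 CPM, against 10.01, 13.3 and 25.5 CPM as lowest, median and highest of the 9 Dam libraries (log2 0.11 ± 0.22, adjusted p = 0.681, edgeR, or −0.86 under library-size scaling, adjusted p = 0.0210).

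Over the gene span without flanks, Scm was called lower in Dam-Jra (−1.23 ± 0.26, adjusted p = 0.000496, edgeR), as it was without the ends inside another gene (−1.45 ± 0.31, adjusted p = 0.000431). The flank held part of the authors' Dam-Jra peak at 3R:9629985-9632506 (the authors' deposited log2 1.39), most of which lies outside the window, towards the neighbour SpdS. In that interval the counts gave 176, 226 and 208 CPM in Dam-Jra, against 42.7 to 87.1 CPM in the 9 Dam libraries. In the flank itself, the end at 3R:9632498 on the minus strand averaged 10.2 ± 1.28 CPM in Dam-Jra (n = 3) and 3.88 ± 1.03 CPM in Dam (n = 9), with log2 1.41 ± 0.30 (adjusted p = 0.00163, edgeR).

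**Figure D4:**
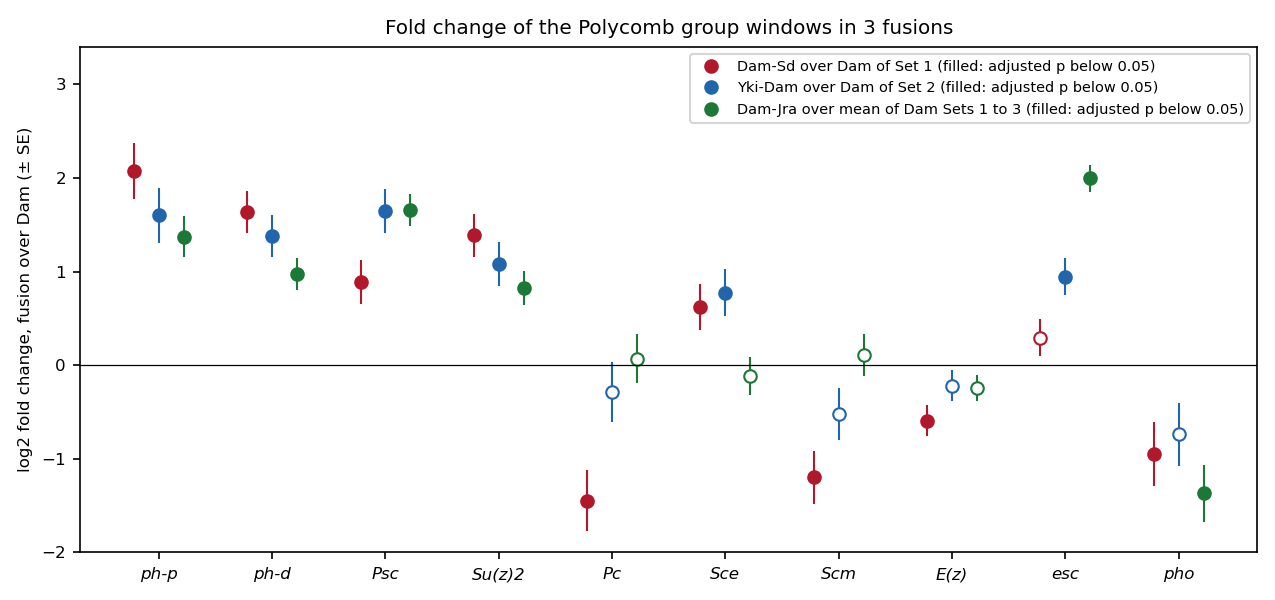
Log2 fold change over Dam (y axis, ± SE) of the 10 Polycomb group windows (x axis) in Dam-Sd, Yki-Dam and Dam-Jra after TMM scaling. Filled points passed an adjusted p of 0.05. ph-p, ph-d, Psc and Su(z)2 are filled and above 0 in all 3 fusions (under library-size scaling only ph-p was called higher in all 3, and Psc in Dam-Sd and Su(z)2 in Dam-Jra were below 0), esc is highest in Dam-Jra at 2.00, and pho is below 0 in all 3 but not filled in Yki-Dam.

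Among the PRC2 genes, E(z) and esc differed. E(z), the histone H3 lysine methyltransferase, lies on 3L at 10634575 to 10638130 among close neighbours, with 38 of its 46 ends shared with other windows. It had 26.3, 20.5 and 22.9 CPM in Dam-Sd, against 39.5, 32.6 and 32.8 CPM in Dam of Set 1. The groups did not overlap, and E(z) fell by 0.59 ± 0.17 on the log2 scale (adjusted p = 0.00616, edgeR). The call ended without Dam-Sd replicate 2 (−0.47, adjusted p = 0.053), over the gene span alone (−0.36, adjusted p = 0.143), in a fit of only the 6 libraries compared (−0.57, adjusted p = 0.0563), with DESeq2's size factors (−0.40, adjusted p = 0.0684) and with its Wald test (adjusted p = 0.0626).

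E(z) had 43.5, 31.8 and 29.9 CPM in Yki-Dam, against 43.3, 40.2 and 39.0 CPM in Dam of Set 2, and 29.0, 33.9 and 30.7 CPM in Dam-Jra, against 32.6, 37.0 and 43.3 CPM as lowest, median and highest of the 9 Dam libraries. After TMM scaling neither passed the test (log2 −0.22 ± 0.17 with adjusted p = 0.302, and −0.25 ± 0.14 with adjusted p = 0.125, edgeR). Under library-size scaling both were called lower (−1.06 with adjusted p = 0.000609, and −1.21 with adjusted p = 1.9e-05, edgeR). One end inside E(z), 3L:10635756 on the minus strand, was called lower in all 3 fusions. It had no read in the Dam-Sd libraries, against 0.745 ± 0.17 CPM in Dam of Set 1 (SD, n = 3, adjusted p = 0.000174, edgeR). It averaged 0.0328 ± 0.0047 CPM in Yki-Dam and 0.498 ± 0.21 CPM in Dam of Set 2 (adjusted p = 0.00398, edgeR), and 0.183 ± 0.067 CPM in Dam-Jra and 0.624 ± 0.19 CPM in the 9 Dam libraries (adjusted p = 0.0239, edgeR).

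esc encodes the WD-repeat partner of E(z). It lies on 2L at 11827204 to 11829405, wholly inside the span of the phosphodiesterase gene Pde1c, so its 30 ends belong to both genes. It had 127, 131 and 144 CPM in Dam-Jra, against 23.3, 33.7 and 44.9 CPM as lowest, median and highest of the 9 Dam libraries. Dam-Jra lay far above every Dam library, with log2 2.00 ± 0.15 (3.99-fold, adjusted p = 2.76e-09, edgeR), and 1.70 ± 0.20 against Set 3 alone (adjusted p = 4.95e-06). This value exceeded those of 97.8% of all windows in the comparison.

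In Yki-Dam esc had 54.1, 60.6 and 55.2 CPM, against 34.7, 23.3 and 30.1 CPM in Dam of Set 2. The groups did not overlap (log2 0.95 ± 0.20, 1.93-fold, adjusted p = 0.00128, edgeR), but neither the gene span alone (0.53 ± 0.23, adjusted p = 0.0812) nor the window under library-size scaling (0.097, adjusted p = 0.660) was called. In Dam-Sd esc had 39.7, 47.0 and 28.5 CPM, against 32.1, 35.7 and 26.0 CPM in Dam of Set 1, and the groups overlapped (log2 0.30 ± 0.20, adjusted p = 0.216, edgeR). It was called higher without Dam-Sd replicate 3 (0.53, adjusted p = 0.0237) and lower under library-size scaling (−0.98, adjusted p = 0.000212, edgeR).

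Where the esc signal lay was described for each fusion against its own control, and differences between the fusions in this were not tested. Within 1 kb of the esc start, log2 was −1.01 ± 0.21 in Dam-Sd (adjusted p = 0.000624, edgeR), −0.02 ± 0.20 in Yki-Dam (adjusted p = 0.948) and 1.20 ± 0.16 in Dam-Jra (adjusted p = 6.47e-06). The authors' deposited list for Dam-Jra held a peak at that start, 2L:11829129-11829390 (log2 1.68), where the counts gave 83.5, 76.3 and 91.1 CPM in Dam-Jra, against 10.6 to 31.1 CPM in the 9 Dam libraries. Beyond the 3′ end, 2L:11825179-11826428 was a peak of both Yki-Dam (the authors' log2 1.77) and Dam-Jra (1.85), most of which lies outside the window. The Dam-Sd end with the largest rise lay on that side as well. It was 2L:11826884 on the minus strand, 2.52 kb downstream of the start, and averaged 14.5 ± 5.73 CPM in Dam-Sd and 3.80 ± 0.75 CPM in Dam of Set 1 (log2 1.93 ± 0.39, adjusted p = 0.002, edgeR).

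pho, the DNA-binding recruiter, lies on chromosome 4 at 1172469 to 1181628 and shares no end with another window. It had 19.6, 18.1 and 18.8 CPM in Dam-Jra, against 30.5, 45.9 and 70.3 CPM as lowest, median and highest of the 9 Dam libraries. Dam-Jra lay below every Dam library, and pho fell by 1.37 ± 0.30 on the log2 scale (adjusted p = 0.000578, edgeR), and by 1.15 ± 0.35 against Set 3 alone (adjusted p = 0.0103). Of its 44 tested ends, 26 were called lower in Dam-Jra, the largest share of any member (59.1%), where 19.9% of all ends were.

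In Dam-Sd, pho had 16.7, 20.6 and 38.8 CPM, against 40.4, 52.4 and 54.6 CPM in Dam of Set 1. The groups were separate but replicate 3 lay near Dam, and pho fell by 0.95 ± 0.34 on the log2 scale (adjusted p = 0.0242, edgeR). The call ended with DESeq2's size factors (−0.79, adjusted p = 0.0504), over the gene span alone (−0.82, adjusted p = 0.0626), and on leaving out Dam-Sd replicate 1 (−0.72, adjusted p = 0.115), Dam-Sd replicate 2 (−0.80, adjusted p = 0.0945), Dam of Set 1 replicate 2 (−0.90, adjusted p = 0.0592) or replicate 3 (−0.87, adjusted p = 0.0726). In Yki-Dam it had 16.6, 38.5 and 45.6 CPM, against 30.5, 67.6 and 70.3 CPM in Dam of Set 2. Replicate 1 was low in both groups, which overlapped, and log2 was −0.74 ± 0.34 (adjusted p = 0.088, edgeR). It was called without Dam of Set 2 replicate 1 (−1.04, adjusted p = 0.0206) or Yki-Dam replicate 3 (−1.06, adjusted p = 0.0395). With the replicate number as a block pho was called lower in Yki-Dam (−0.77, adjusted p = 0.000641, edgeR), as it was under library-size scaling (−1.59, adjusted p = 0.00301, edgeR).

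**Figure D5:**
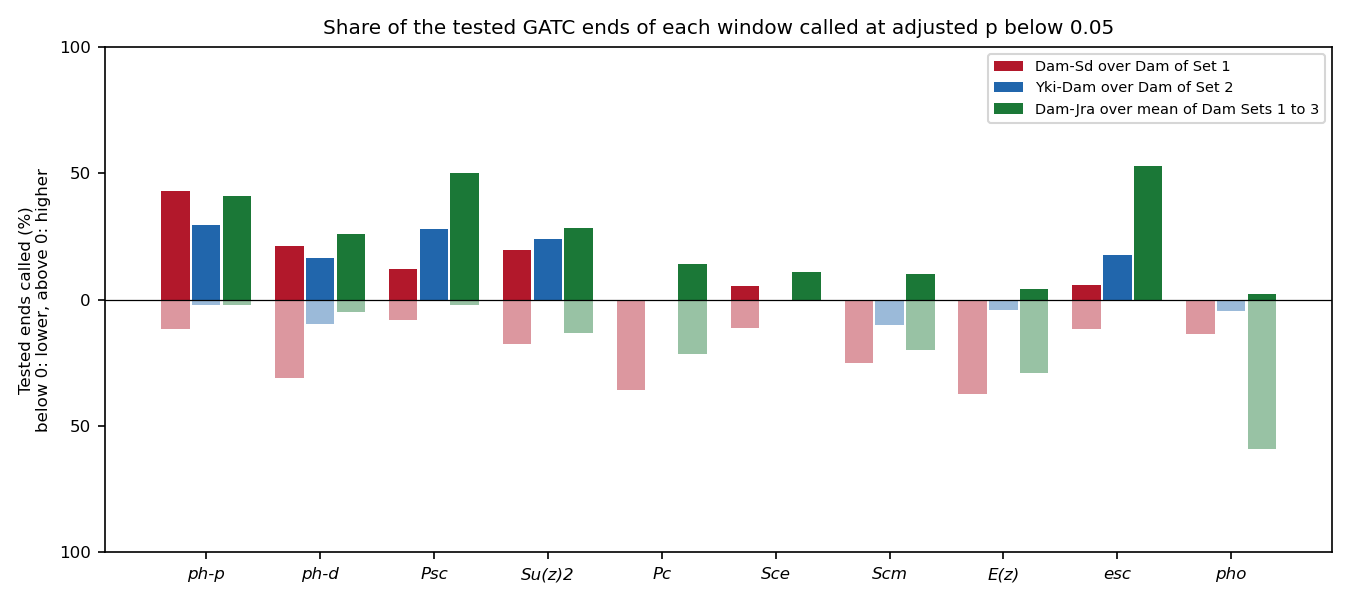
Share of the tested single GATC ends of each Polycomb group window called at an adjusted p below 0.05, higher ends above 0 and lower ends below 0, in Dam-Sd, Yki-Dam and Dam-Jra. Bars start at 0. The highest bars are Psc (50% of 50 ends) and esc (52.9% of 17) in Dam-Jra and ph-p (43.1% of 51) in Dam-Sd, and the longest downward bar is pho in Dam-Jra (59.1% of 44). Of all ends, 18.8% were called higher and 19.9% lower in Dam-Jra, and 11.0% higher in Dam-Sd.

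Over all 10 windows, 326 of the 594 ends could be tested. Those called higher and lower numbered 48 and 60 for Dam-Sd, 50 and 10 for Yki-Dam, and 87 and 50 for Dam-Jra. As shares of the tested ends these were 14.7% and 18.4% for Dam-Sd, 15.3% and 3.07% for Yki-Dam, and 26.7% and 15.3% for Dam-Jra, beside 11.0% and 11.3%, 7.0% and 3.06%, and 18.8% and 19.9% of all ends. The lower share in Yki-Dam was thus near that of all ends. Because both sides of a fragment are read from it, neighbouring ends are not independent. The authors' deposited lists held a peak in 3 member windows for Dam-Sd, 4 for Yki-Dam and 6 for Dam-Jra, where 26.2%, 20.7% and 26.6% of all windows held one. Any overlap counted, so esc in Yki-Dam, and Su(z)2 and Scm in Dam-Jra, entered through peaks that lie mostly outside their windows. They listed no peak in the windows of Pc, E(z), Sce and pho.

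The fusions were then compared with each other through the difference of their fold changes. Dam-Sd minus Yki-Dam was called for 0 of the 10 members by edgeR's quasi-likelihood test, where 1.74% of all windows were called higher and 1.60% lower. Equal replicate numbers paired Dam-Sd with its Dam set, and Yki-Dam with its own less clearly. The difference was not fitted with the replicate number as a block. At an unadjusted p below 0.05 there were 3, all lower in Dam-Sd. The largest differences were those of Pc (−1.16 ± 0.46, adjusted p = 0.146) and Psc (−0.76 ± 0.33, adjusted p = 0.183). Pc was called without Dam-Sd replicate 3 (−1.81, adjusted p = 0.00213), and Psc under library-size scaling (−1.24, adjusted p = 0.0132). When both fusions were set against the average of all Dam sets, the difference was called for Pc (−1.02, adjusted p = 0.0367), E(z) (−0.60, adjusted p = 0.0206) and Scm (−1.08, adjusted p = 0.0127).

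Dam-Jra minus Dam-Sd, in which Dam of Set 1 enters both sides, was called higher for 4 members and lower for 2, where 19.3% and 23.0% of all windows were. esc differed most, by 1.70 ± 0.23 (adjusted p = 2e-05, edgeR), then Pc by 1.52 ± 0.37 (adjusted p = 0.00348), Scm by 1.31 ± 0.32 (adjusted p = 0.00338) and Psc by 0.77 ± 0.27 (adjusted p = 0.0265). ph-d (−0.66 ± 0.25, adjusted p = 0.0419) and Sce (−0.74 ± 0.29, adjusted p = 0.044) were lower in Dam-Jra. The Scm call ended over the gene span without flanks (0.70, adjusted p = 0.126). The Psc call ended with DESeq2's size factors (0.68, adjusted p = 0.0728), over the gene span (0.75, adjusted p = 0.0635) and against Set 3 alone (0.61, adjusted p = 0.170). The ph-d call ended over the gene span (−0.15, adjusted p = 0.728), against the mean of the Dam sets (−0.30, adjusted p = 0.273), under library-size scaling (−0.32, adjusted p = 0.166) and without a filter on low counts (−0.67, adjusted p = 0.0543). The Sce difference was 1.20 over the gene span (adjusted p = 0.0892), −0.86 against Set 3 alone (adjusted p = 0.0707) and −0.37 under library-size scaling (adjusted p = 0.311). Dam-Jra minus Yki-Dam was called for esc, higher by 1.05 ± 0.23 (adjusted p = 0.00279, edgeR), and for Sce (−0.89 ± 0.29, adjusted p = 0.0274), where 13.5% of all windows were higher and 12.7% lower. With Dam of Set 3 alone as the control of Dam-Jra both calls ended (esc 0.75, adjusted p = 0.103, and Sce −1.01, adjusted p = 0.0789), and over the gene span that of Sce did (−0.27, adjusted p = 0.756).

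Levels between genes were compared per kb of window, first in Dam alone. Reads were counted at GATC ends, and the members' windows held from 4.59 (Psc) to 9.45 (Sce) ends per kb. Orders per kb, in Dam and in the fusions, therefore also depend on how densely the ends lie. Levels per end were not compared between genes. Over the 9 Dam libraries ph-p averaged 13.6 ± 4.99 and ph-d 11.8 ± 2.86 CPM per kb (SD), more than 86.7% and 83.0% of all windows. Next came esc (8.07 ± 1.76), Su(z)2 (7.75 ± 1.17), E(z) (6.67 ± 0.66) and Sce (6.43 ± 0.90), neighbours in this order that differed by less than their spread. pho had 4.39 ± 1.21 and Psc 3.69 ± 0.61 CPM per kb, both below the median window at 5.13. Scm (2.29 ± 0.77) and Pc (1.37 ± 0.35) were lowest, and only 10.6% of windows were lower than Pc.

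In the fusions, levels per kb ran highest for ph-p, at 35.0 ± 17.4 CPM per kb for Dam-Sd, 40.2 ± 4.13 for Yki-Dam and 33.2 ± 2.36 for Dam-Jra (SD, n = 3 each). esc came close to it in Dam-Jra (31.9 ± 2.14), above ph-d (22.8 ± 1.01), but stood at 9.13 ± 2.22 in Dam-Sd. Pc was the lowest member in every fusion, at 0.577 ± 0.397 for Dam-Sd, 1.18 ± 0.08 for Yki-Dam and 1.42 ± 0.06 for Dam-Jra.

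Across the 18 libraries the log2 CPM of ph-p and ph-d followed each other most closely among the members (Pearson r = 0.975). Pc and Scm (0.862), ph-p and Psc (0.871) and Psc and esc (0.834) also moved together, and ph-d and pho ran opposite (−0.740). Among all windows that lay on another arm or over 100 kb away, those most like ph-p were Inx2 (0.988) and simj (0.986). Those most like esc were DnaJ-1 (0.977) and SpdS (0.963), and those most like pho were lt (0.949) and hydra (0.948). For Pc they were Gle1 (0.966) and Psn (0.937), for Psc RpL22 (0.972) and Hsc70-3 (0.971), and for Su(z)2 Drak and Kank (0.981 each). These values describe 18 libraries that share group, depth and scaling, and carry no test.

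Other Polycomb group genes from a written list, 23 of 24 with a tested window, were called in both directions. Dam-Sd had 7 higher and 12 lower (median −0.60), Yki-Dam 8 and 7 (median −0.05), and Dam-Jra 11 and 5 (median 0.24). Over all windows, Dam-Sd had 25.0% called higher and 30.5% lower, Yki-Dam 18.2% and 22.6%, and Dam-Jra 30.8% and 38.4%. The higher ones in Dam-Sd and Yki-Dam included psq, which encodes a BTB-domain protein that binds GA repeats (2.34 ± 0.26, adjusted p = 1.03e-06 in Dam-Sd, and 1.86 ± 0.25, adjusted p = 3.27e-05 in Yki-Dam, edgeR), and grh, an epithelial transcription factor (2.00 ± 0.23 and 1.65 ± 0.23). In Dam-Jra they included the zinc-finger genes cg (1.55 ± 0.13, adjusted p = 8.65e-09) and jing (1.41 ± 0.16). E(Pc), of a histone acetyltransferase complex, was called lower in Dam-Sd (−2.37 ± 0.30) and Yki-Dam (−1.30 ± 0.29). sxc, the O-GlcNAc transferase, was called lower in Dam-Jra (−1.98 ± 0.25), as was the PRC2 subunit gene Su(z)12 (−0.86 ± 0.18).

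Trithorax group genes, which counter Polycomb silencing, had 24 tested windows. Dam-Sd had 5 higher and 11 lower, Yki-Dam 5 and 5, and Dam-Jra 7 and 5. Beside the shares of all windows just given, these higher counts lay near or under the background for each fusion. The lower counts lay above the background in Dam-Sd, near it in Yki-Dam and under it in Dam-Jra. No test of the list was run. Trl, which encodes the GAGA factor, rose in Dam-Sd (2.71 ± 0.35, adjusted p = 4.75e-06, edgeR), and osa, of the Brahma remodelling complex, rose in Dam-Sd (2.15 ± 0.25) and Yki-Dam (1.33 ± 0.24). polybromo, another Brahma subunit gene, rose in Dam-Jra (2.78 ± 0.18, adjusted p = 4.31e-10). Bap60, also of that complex, fell in Dam-Sd (−2.01 ± 0.21) and Yki-Dam (−1.31 ± 0.21), and the histone methyltransferase gene ash1 and the demethylase gene Utx fell in Dam-Jra (−1.75 ± 0.28 and −2.45 ± 0.29). The median log2 fold change of the trithorax windows was −0.42 for Dam-Sd, −0.21 for Yki-Dam and −0.05 for Dam-Jra, beside the all-window medians given above.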

How the data were processed

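Raw read counts per GATC end, in whole numbers for 18 libraries, were deposited by the authors. The submitters' processing notes name Subread, featureCounts, edgeR, bedtools and the dm6 build, and give no versions. The peak lists deposited by the authors have no header and hold per peak a log2 fold change, a p-value, numbers of ends, a fraction read as the share of ends that count, and a distance score to a gene start. Which libraries they rest on is not given in the sources used here. Windows are sums of end counts over RefSeq gene spans with 1 kb on each side, scaled by TMM (factors 0.512 to 1.78) and filtered with filterByExpr (minimum count 10). All 18 libraries were fitted as 6 groups with edgeR 4.0.16 in R 4.3.3 (12 residual degrees of freedom). Windows (14093) and ends (394539) were adjusted separately by Benjamini-Hochberg. SE was derived from the fold change and the F statistic.

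The fit was also run on simulated data with equal numbers of raised and lowered windows in Dam-Sd. The outcome of that run is not given here, and it does not bear on calls that changed with the scaling. The members and gene lists were chosen with earlier results of these data known. All members are named in every comparison. From the lists, the 2 called windows with the smallest p in each direction, from the other windows the 2 with the highest r to a member, and from single ends the called one with the largest change in each direction were eligible to be named. Gene starts were taken from the authors' peak tables, which gave them for 3509 genes including 4 members. Of the 24 other Polycomb genes written down, 1 is not analysed here. Equal replicate numbers paired Dam-Sd with Set 1 (correlations of deviations from the group means 0.556, 0.374 and 0.371, beside −0.51 to 0.239 for unequal numbers). For Yki-Dam with Set 2 the pairing was less clear (0.615, 0.384 and 0.307, beside −0.525 to 0.363 for unequal numbers). Equal numbers did not pair Dam-Jra with Set 1 (−0.239, −0.0249 and −0.0809) or Set 3 (0.0991, −0.0918 and 0.0642). Across all peaks the authors' log2 fold correlated with the mean log2 fold of the ends inside at r = 0.765 (Dam-Sd), 0.935 (Yki-Dam) and 0.799 (Dam-Jra). Reads without molecular identifiers are not independent molecules.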

Additional observations from a re-analysis of the deposited data

Results flagged for a closer look

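The fold changes of 2 fusions over Dam differed, by the test of the difference itself (edgeR's quasi-likelihood test), for 8 pairs of member and fusions. Dam-Jra exceeded Dam-Sd at esc (1.70 ± 0.23 on the log2 scale, adjusted p = 2e-05), Pc (1.52 ± 0.37, adjusted p = 0.00348), Scm (1.31 ± 0.32, adjusted p = 0.00338) and Psc (0.77 ± 0.27, adjusted p = 0.0265), and was below it at ph-d (−0.66 ± 0.25, adjusted p = 0.0419) and Sce (−0.74 ± 0.29, adjusted p = 0.044). Dam-Jra exceeded Yki-Dam at esc (1.05 ± 0.23, adjusted p = 0.00279) and was below it at Sce (−0.89 ± 0.29, adjusted p = 0.0274). With each library left out in turn, the Dam-Jra minus Dam-Sd calls of esc (1.5 to 1.87), Pc (1.27 to 2.23) and Scm (1.10 to 1.68) held in 15 of 15 repeats, though that of Scm ended over the gene span without flanks (0.70, adjusted p = 0.126). The call of Psc ended in 6 repeats (0.46 to 1.05), that of ph-d in 12 (−0.89 to −0.36) and that of Sce in 10 (−0.99 to −0.27). For Dam-Jra minus Yki-Dam, esc held in 15 of 15 repeats (0.96 to 1.15) but ended with Dam of Set 3 alone as control (0.75, adjusted p = 0.103), and the call of Sce ended in 6 (−0.96 to −0.67). The fusions share Dam libraries through Sets 1 and 2.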

How the results depend on the processing

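Over the alternatives other than leaving out a library, 436 results kept their direction and call, 29 turned and the rest moved past or back over a threshold or changed in size; with libraries left out in turn, 595 kept them and 15 turned. The cause of these changes was not tested. With library size as the only scaling, Dam-Sd gave Psc −0.44, esc −0.98 and Sce −0.72, with 1 window higher and 7 lower and 23 ends higher and 115 lower. Yki-Dam gave Sce −0.069, 3 and 4 windows, and 27 and 35 ends. Dam-Jra gave Pc −0.91, Su(z)2 −0.14 and Scm −0.86, 3 and 5 windows, and 44 and 102 ends. Dam-Sd minus Yki-Dam then gave ph-p −0.036, ph-d −0.20 and Su(z)2 −0.17, with 1 lower, Dam-Jra minus Dam-Sd 0 lower, and Dam-Jra minus Yki-Dam Psc −0.10 with 2 lower. DESeq2's size factors left 2 windows lower in Dam-Sd, and moved the share of higher among all called windows to 54.1%, 52.0% and 49.0% (TMM 45.1%, 44.6% and 44.5%).

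Without flanks, Dam-Sd gave esc −0.13 and Sce −1.04 with 2 lower, Dam-Jra Scm −1.23 and Sce 0.16 with 2 lower, Dam-Jra minus Dam-Sd Sce 1.20 with 2 higher and 1 lower, and Dam-Jra minus Yki-Dam ph-d 0.15 and Scm −0.69 with 0 lower. Around the start, esc was −1.01 in Dam-Sd and −0.020 in Yki-Dam. Without ends inside another gene, E(z) was 0.0081 in Yki-Dam and Scm −1.45 in Dam-Jra, with 2 lower; esc had no such value. At an adjusted p of 0.01, ends numbered 29 higher and 29 lower in Dam-Sd, 23 and 2 in Yki-Dam, and 15 lower in Dam-Jra, and both Dam-Jra differences had 0 lower.

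Against the average of all Dam sets, Dam-Sd minus Yki-Dam gave ph-p −0.20, ph-d −0.10 and Sce 0.013 with 3 lower, and Dam-Jra minus Dam-Sd 1 lower. Set 1 alone gave Pc −0.15 in Dam-Jra. Set 3 alone gave Psc −0.15, E(z) 0.033, 0 higher and 0 lower in Dam-Jra minus Yki-Dam. Without a filter, E(z) was 0.028 there, and Dam-Jra minus Dam-Sd had 1 lower. Among the peaks with the larger fold, 1 window had one in Dam-Jra. The replicate block gave 1 window (pho, −0.77) and 24 ends lower in Yki-Dam, and changed no other member call against Dam.

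Leaving out 1 library at a time, Dam-Sd had 2 to 4 windows lower, 28 to 66 ends higher and 38 to 72 lower; Yki-Dam 0 to 1 windows lower, 28 to 40 ends higher and 3 to 14 lower; and Dam-Jra 17 to 49 ends lower. In Dam-Sd minus Yki-Dam, Sce ran from −0.57 to 0.16, pho from −0.56 to 0.13 and the lower count from 0 to 1. In Dam-Jra minus Dam-Sd, pho ran from −0.61 to 0.00088 and the lower count from 0 to 4. In Dam-Jra minus Yki-Dam, Psc ran from −0.042 to 0.10, E(z) from −0.077 to 0.22 and the lower count from 0 to 1. Low coverage limits Pc, of whose 78 ends 14 could be tested.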
